A study of Mus musculus with 12 samples.

Results

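The troponin genes of striated muscle were followed across the tibialis anterior of 6 control and 6 *Smyd1* CKO mice. The 8 members, *Tnni1*, *Tnni2*, *Tnni3*, *Tnnt1*, *Tnnt2*, *Tnnt3*, *Tnnc1* and *Tnnc2*, were taken by gene symbol from the 23923 genes listed for every mouse. All 8 symbols were found, and all 8 were among the 12695 genes with at least 0.1 FPKM (sequenced fragments of a gene, divided by its transcript length and by the library's mapped total) in at least 6 of the 12 libraries, which were the genes tested. Controls were *Myf6* cre/+; *Smyd1* flox/+ and CKOs were *Myf6* cre/+; *Smyd1* flox/-, in a mixed C57BL6/J;129S1/SvImJ background at 6 weeks of age. Both groups therefore carried Cre and a floxed allele, and they differed in whether the other *Smyd1* allele was wild type or null. Per the study, the crosses also brought in a *Rosa26* YFP reporter, and Cre was made together with *Myf6*, a regulatory factor of differentiated myofibers. Myofibers were thus its intended target, and recombination in other cells of the muscle cannot be read from these values. Each mouse gave 1 library of whole muscle RNA. SMYD1 is a histone methyltransferase of muscle that is also known to act on the assembly of the thick filament.

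Troponin is the calcium switch of the thin filament. Troponin C binds calcium, troponin I holds back the interaction of actin and myosin until calcium arrives, and troponin T ties the complex to tropomyosin. Fast-twitch fibers make *Tnni2*, *Tnnt3* and *Tnnc2*, and slow-twitch fibers make *Tnni1*, *Tnnt1* and *Tnnc1*. The heart uses *Tnni3* and *Tnnt2* and shares *Tnnc1* with slow muscle. *Tnnt2* is also made for a time in developing skeletal muscle. The tibialis anterior of the mouse is a fast-twitch muscle with few slow fibers.

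The troponin I and T genes lie in pairs, as placed by GENCODE mouse release M21 on GRCm38, which is not the mm9 build of the deposited values. *Tnni1* (chr1:135779434-135810989, + strand) was followed by *Tnnt2* (chr1:135836354-135852260, + strand) after 25.4 kb, so a slow troponin I gene stood next to the cardiac troponin T gene. *Tnnt1* (chr7:4504570-4516382, - strand) and *Tnni3* (chr7:4518305-4524229, - strand) were 1922 bases apart and paired slow troponin T with cardiac troponin I. *Tnni2* (chr7:142441808-142444410, + strand) and *Tnnt3* (chr7:142498836-142516009, + strand) paired both fast genes over 54.4 kb. *Tnnc1* (chr14:31208312-31211729, + strand) and *Tnnc2* (chr2:164777161-164779967, - strand) had no troponin neighbor. 2 genes lay between paired troponins. *Lad1*, between *Tnni1* and *Tnnt2*, did not exceed 0.0175 FPKM in any library. *Lsp1*, between *Tnni2* and *Tnnt3*, lay between 3.43 and 6.63 FPKM in controls and between 3.30 and 5.16 in CKOs (log2 fold change -0.05, limma adjusted P = 0.883). *Prr33* overlaps *Tnnt3* on the other strand and *Dnaaf3* overlaps *Tnni3* on the same strand. Whether the authors counted by strand is not given in the sources used here, so reads from an overlap cannot be told apart.

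The bases before the start site of *Tnni1*, *Tnnt1*, *Tnnc1* and *Tnnt2*, which were highest in the same mice, and of *Tnnc2*, which was lowest in them, are shown because they hold or lack known muscle motifs. They are RefSeq start sites on GRCm38.p6, and only bases outside any exon of the gene are printed. The start site used for *Tnni1*, chr1:135799421, lies well inside the GENCODE span given above, not at its beginning. Those of *Tnnt1* and *Tnnc2* also lie inside their spans. 6 of the 8 members had an entry; *Tnni2* and *Tnnt3* were without one. Capitals mark the E-box CAGCTG, the MCAT motif CATTCC and the CACC box CCACCC, each searched on both strands, so that GGAATG and GGGTGG are the latter motifs read on the other strand. These motifs were present in the 250 upstream bases of 13%, 12.6% and 28.1% of 32851 promoters, respectively.
*Tnni1*, chr1:135799171-135799401, + strand: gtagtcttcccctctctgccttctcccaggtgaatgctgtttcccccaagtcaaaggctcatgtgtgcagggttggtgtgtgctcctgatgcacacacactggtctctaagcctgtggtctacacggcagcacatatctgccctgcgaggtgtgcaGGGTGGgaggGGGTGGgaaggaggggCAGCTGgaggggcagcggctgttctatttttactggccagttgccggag
*Tnnt1*, chr7:4516005-4516225, - strand: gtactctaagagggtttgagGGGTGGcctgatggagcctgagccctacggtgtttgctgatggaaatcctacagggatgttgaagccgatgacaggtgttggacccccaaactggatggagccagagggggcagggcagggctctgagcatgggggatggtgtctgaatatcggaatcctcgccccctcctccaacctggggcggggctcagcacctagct
*Tnnc1*, chr14:31208062-31208311, + strand: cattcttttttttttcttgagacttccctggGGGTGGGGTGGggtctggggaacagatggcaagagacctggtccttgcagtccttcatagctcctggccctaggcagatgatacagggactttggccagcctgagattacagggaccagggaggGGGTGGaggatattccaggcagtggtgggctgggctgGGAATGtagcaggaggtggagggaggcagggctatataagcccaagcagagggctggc
*Tnnt2*, chr1:135836084-135836333, + strand: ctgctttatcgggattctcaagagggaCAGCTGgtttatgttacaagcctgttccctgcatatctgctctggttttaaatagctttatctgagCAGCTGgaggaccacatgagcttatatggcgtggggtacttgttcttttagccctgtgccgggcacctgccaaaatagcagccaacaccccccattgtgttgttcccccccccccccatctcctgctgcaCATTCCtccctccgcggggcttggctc
*Tnnc2*, chr2:164779742-164779867, - strand: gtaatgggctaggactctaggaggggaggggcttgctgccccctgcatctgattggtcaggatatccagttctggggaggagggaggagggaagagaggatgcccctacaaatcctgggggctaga
*Tnni1* held an E-box that begins at position -68 from the start and CACC boxes at -94 and -84. *Tnnt1* held a CACC box at -230. *Tnnc1* held an MCAT motif at -58 and CACC boxes at -219, -214 and -95, the first and second of which share a base. *Tnnt2* held E-boxes at -223 and -157 and an MCAT motif at -27. *Tnni1* and *Tnnt2* each had another start site entry. From that of *Tnni1* the same E-box begins at -158 and the CACC boxes at -184 and -174. The window before that of *Tnnt2* lay wholly in an exon and held 0 of the motifs. None of these letters were found in the printed bases of *Tnnc2* or in the window of *Tnni3*. Each match is a description of sequence and not a binding site.

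All 12 muscles expressed the fast troponins at levels far above the other members. FPKM is scaled to transcript length, so the levels of different genes can be set side by side. In controls the order of the median FPKM was *Tnnt3* (5698), *Tnnc2* (4724), *Tnni2* (3052), *Tnnt1* (3.18), *Tnnc1* (1.05), *Tnnt2* (0.540), *Tnni1* (0.249) and *Tnni3* (0.0959). In CKOs it was *Tnnt3* (4391), *Tnnc2* (3628), *Tnni2* (2587), *Tnnt1* (11.3), *Tnnc1* (3.41), *Tnni1* (2.70), *Tnnt2* (1.07) and *Tnni3* (0.131). The order changed in 1 place, with *Tnni1* above *Tnnt2* in CKOs. The step from *Tnni2* to *Tnnt1* was 959-fold in controls and 228-fold in CKOs, and the ranges on either side of it did not overlap. The ranges of every other pair of neighbors overlapped, apart from *Tnnc2* and *Tnni2* in CKOs. Per subunit, the fast isoform made up nearly all of the summed FPKM, and its lowest share in any mouse was 98.5%, for *Tnnt3* in CKO 6.

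**Figure D1:**
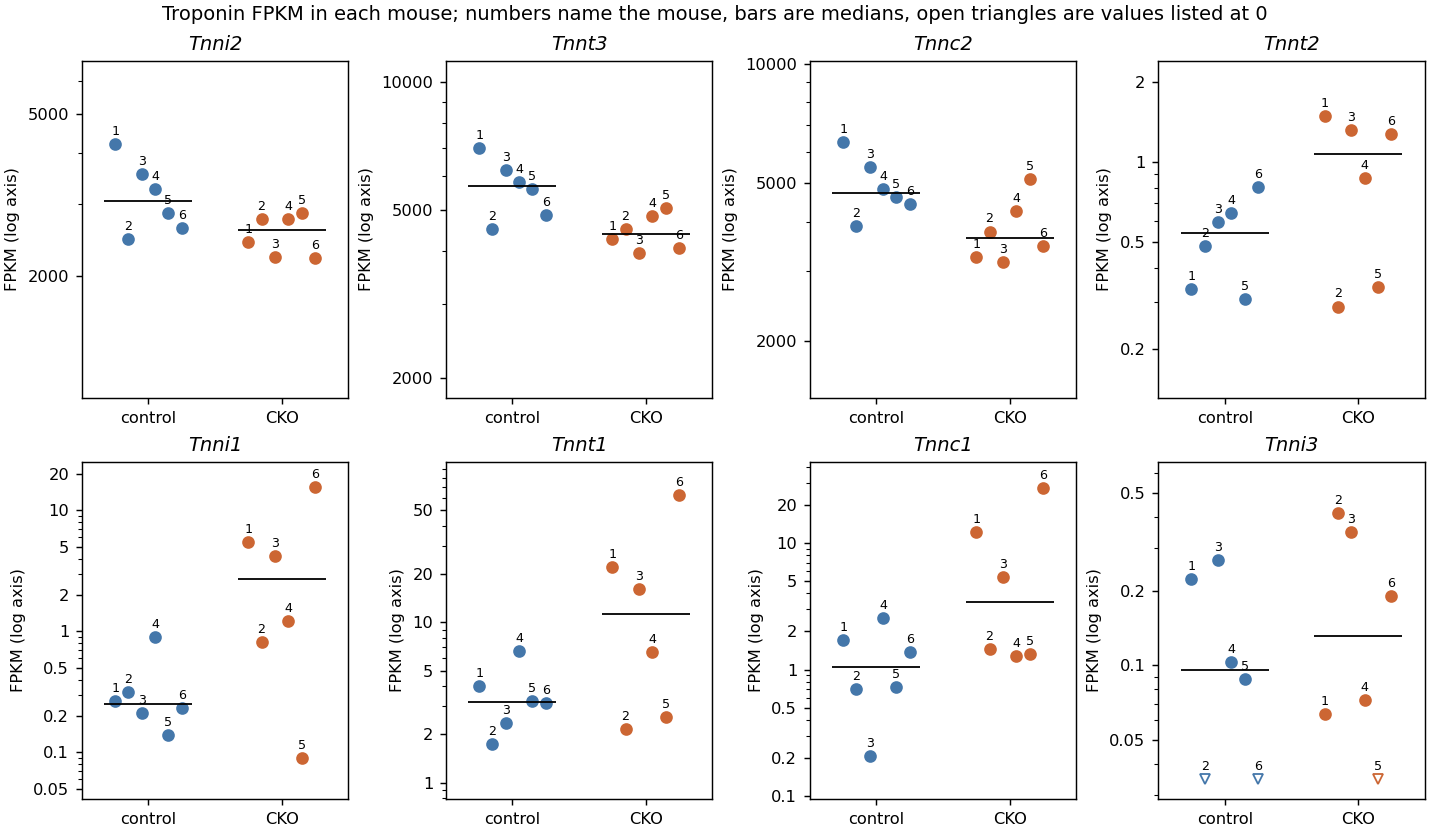
FPKM of each troponin gene in each mouse (log axis, a different range in each panel), with controls in blue and CKOs in orange; numbers name the mouse, black bars are group medians and open triangles are values listed at 0. *Tnni1*, *Tnnt1* and *Tnnc1* were highest in CKO 6, CKO 1 and CKO 3, and the 3 fast genes were lowest in the same mice.

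The slow isoforms were higher on average in CKOs, by 2.96-fold to 5.33-fold from group means of log2(FPKM + 0.1), but the CKO mice differed widely. Slow troponin I, *Tnni1*, measured 0.267, 0.318, 0.212, 0.904, 0.140 and 0.231 FPKM in controls 1 to 6. It measured 5.49, 0.824, 4.19, 1.21, 0.0906 and 15.7 FPKM in CKOs 1 to 6. CKOs 1, 3, 4 and 6 stood above all controls, CKO 2 lay within the controls, and CKO 5 was the lowest of the 12 mice. The log2 fold change on log2(FPKM + 0.1), which understates the change of low genes, was 2.41 with a standard error of 0.79 and a 95% interval of 0.73 to 4.10 (limma adjusted P = 0.119). Without CKO 5 it was 3.11 and the adjusted P was 0.0145. Without CKO 6 it was 1.83 (adjusted P = 0.203), and with any mouse other than CKO 5 left out the adjusted P stayed above 0.05 and reached 0.248.

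Slow troponin T, *Tnnt1*, measured 4.01, 1.74, 2.36, 6.61, 3.22 and 3.14 FPKM in controls 1 to 6. It measured 22.3, 2.17, 16.2, 6.50, 2.55 and 62.4 FPKM in CKOs 1 to 6. CKOs 1, 3 and 6 exceeded all controls, and the other 3 CKOs lay within the control range. Its log2 fold change was 1.57 with a standard error of 0.66 and a 95% interval of 0.16 to 2.97 (limma adjusted P = 0.204). Without CKO 6 it was 1.03.

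*Tnnc1*, the troponin C of slow and cardiac muscle, measured 1.71, 0.703, 0.209, 2.55, 0.724 and 1.37 FPKM in controls 1 to 6. It measured 12.1, 1.46, 5.37, 1.28, 1.34 and 27.2 FPKM in CKOs 1 to 6. Again CKOs 1, 3 and 6 were above all controls and the others were within the control range. For *Tnnc1* the log2 fold change was 1.99 with a standard error of 0.72 and a 95% interval of 0.47 to 3.51 (limma adjusted P = 0.147). The spread among CKOs was wider than among controls for all 3 slow genes. The coefficient of variation of FPKM was 127%, 122% and 126% in CKOs for *Tnni1*, *Tnnt1* and *Tnnc1*, against 81.0%, 48.5% and 69.7% in controls.

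At an unadjusted P below 0.05, 3 of the 8 members were higher in CKOs, and these were the 3 slow genes, while 18.1% of all genes tested were higher at this threshold. The count was 2 to 4 with 1 mouse left out, where *Tnni1* and *Tnnc1* passed in all 12 fits and *Tnnt1* in 7 of 12, failing without CKO 1, CKO 3, CKO 6, control 2 or control 3. None were lower at it, against 1.76% of all genes. With Benjamini-Hochberg adjustment over the 12695 genes, 0 members were higher and 0 lower in limma, while 2.02% and 0.268% of all genes were. No member had all 6 CKO values above all 6 control values, as 2.23% of genes did, and none had all 6 below, as 0.189% did. The whole table was shifted upwards in CKOs, with a median log2 fold change of 0.18 over all genes tested and a positive value for 77.9% of them.

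The fast isoforms were lower on average in CKOs, to between 0.777 and 0.813 of the control level from group means of log2(FPKM + 0.1), with ranges that overlapped. Fast troponin I, *Tnni2*, measured 4203, 2463, 3552, 3257, 2847 and 2618 FPKM in controls 1 to 6 and 2418, 2756, 2226, 2762, 2845 and 2206 FPKM in CKOs 1 to 6. CKOs 1, 3 and 6 fell below the lowest control, and the other 3 CKOs lay within the control range. The log2 fold change was -0.30 with a standard error of 0.16 and a 95% interval of -0.65 to 0.05 (limma adjusted P = 0.314).

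Fast troponin T, *Tnnt3*, was the member with the highest FPKM, at 7007, 4501, 6204, 5801, 5595 and 4867 in controls 1 to 6 and 4271, 4511, 3960.4, 4827, 5058 and 4070.1 in CKOs 1 to 6. It ranked between place 1 and place 3 of all genes in controls. CKOs 1, 3 and 6 were again below all controls. Its log2 fold change was -0.34 with a standard error of 0.16 (limma adjusted P = 0.254), and the upper end of the 95% interval, at 0.0032, just passed 0. Fast troponin C, *Tnnc2*, measured 6359, 3894, 5494, 4826, 4622 and 4420.4 FPKM in controls 1 to 6 and 3250.5, 3777, 3159.7, 4244, 5137 and 3479 FPKM in CKOs 1 to 6. CKOs 1, 2, 3 and 6 were below all controls and CKO 5 was above 4 of the 6. For *Tnnc2* the log2 fold change was -0.36 with a standard error of 0.18 and a 95% interval of -0.74 to 0.01 (limma adjusted P = 0.263). The number of fast fibers and the amount of fast troponin RNA per fiber cannot be told apart in whole muscle, and the same holds for the slow genes.

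The cardiac isoforms were near the bottom of the scale in both groups. Cardiac troponin T, *Tnnt2*, measured 0.334, 0.485, 0.595, 0.645, 0.306 and 0.808 FPKM in controls 1 to 6 and 1.49, 0.287, 1.32, 0.869, 0.339 and 1.27 FPKM in CKOs 1 to 6. CKOs 1, 3, 4 and 6 stood above all controls and CKO 2 was the lowest of the 12 mice. For *Tnnt2* the log2 fold change was 0.57 with a standard error of 0.36 (limma adjusted P = 0.382), and its 95% interval, as a fold, ran from 0.875 to 2.51. Cardiac troponin I, *Tnni3*, was listed at 0.225, 0, 0.267, 0.104, 0.0883 and 0 FPKM in controls 1 to 6 and at 0.0635, 0.415, 0.345, 0.0726, 0 and 0.190 FPKM in CKOs 1 to 6. The groups overlapped through most of their range. An FPKM of 0 is not always an absence of RNA in these files, since 5 genes were listed at 0 in 1 library and at 10 FPKM or more in another. The number of fragments behind these low values is unknown. The log2 difference for *Tnni3* was 0.34 with a standard error of 0.44 (limma adjusted P = 0.691).

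**Figure D2:**
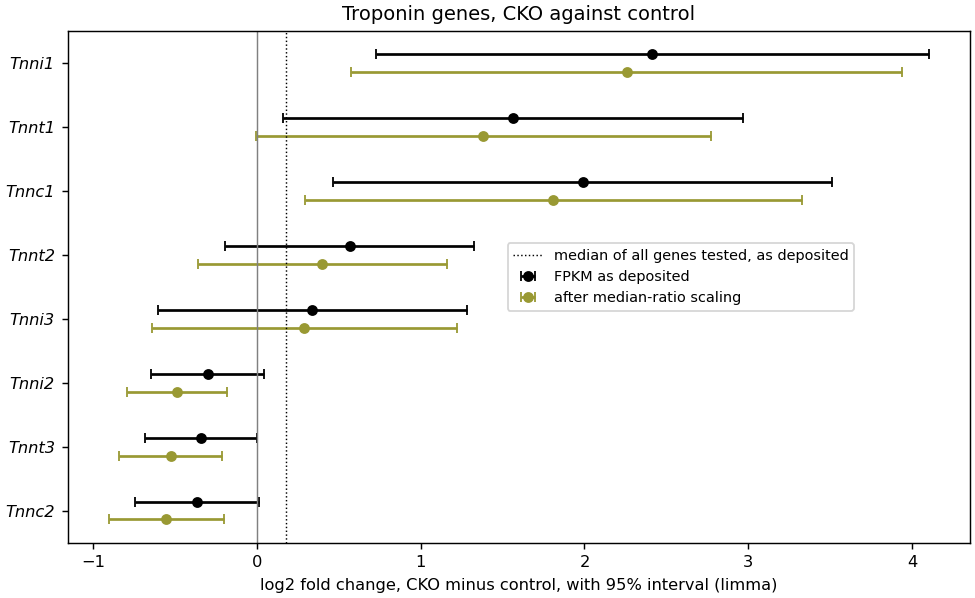
Log2 fold change of each troponin gene, CKO minus control (x axis), with 95% intervals from limma, for the FPKM as deposited (black) and after median-ratio scaling of the libraries (olive); the dotted line is the median of all genes tested. The intervals of *Tnni1* and *Tnnc1* lay above 0 both ways, and those of the 3 fast genes lay below 0 only after scaling.

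The counts of higher and lower members depended on how libraries were scaled. After each library was divided by the median ratio of its FPKM to the geometric mean over libraries, the median log2 fold change of all genes was 0.01. At the unadjusted threshold 2 members were then higher, *Tnni1* (log2 fold change 2.26) and *Tnnc1* (1.81), while *Tnnt1* was at 1.38 with a 95% interval of -0.01 to 2.77. The 3 fast genes were lower at that threshold, with log2 fold changes of -0.49 for *Tnni2*, -0.53 for *Tnnt3* and -0.55 for *Tnnc2*. None of these 3 passed the adjusted threshold, with limma adjusted P between 0.102 and 0.122. Of all genes, 6.62% were higher and 7.44% lower under this scaling. Quantile normalization gave -0.19, -0.26 and -0.08 for the same 3 genes, so their direction was negative under each scaling and the size of the difference was not settled.

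A ratio of 2 genes within a mouse does not depend on the scaling of its library, apart from the pseudocount. The 5 ratios of a slow or cardiac isoform to the fast isoform of its subunit were therefore compared by a two-sided exact permutation test over all assignments of the mice to the groups, with Benjamini-Hochberg adjustment over the 5. *Tnni1* amounted to 0.00636, 0.0129, 0.00597, 0.0277, 0.00492 and 0.00884% of *Tnni2* in controls 1 to 6. It amounted to 0.227, 0.0299, 0.188, 0.0439, 0.00318 and 0.710% in CKOs 1 to 6. The ratio was above all controls in 5 CKOs and below all controls in CKO 5. Its mean log2 value was -12.94 ± 0.74 in controls and -10.23 ± 2.40 in CKOs (SD, n = 6), a difference of 2.71 (exact P = 0.0303, adjusted P = 0.0866).

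*Tnnt1* amounted to 0.0573, 0.0387, 0.0381, 0.114, 0.0575 and 0.0646% of *Tnnt3* in controls 1 to 6 and to 0.522, 0.0480, 0.409, 0.135, 0.0505 and 1.53% in CKOs 1 to 6. CKOs 1, 3, 4 and 6 exceeded all controls. The mean log2 ratio was -10.72 ± 0.56 in controls and -8.82 ± 1.98 in CKOs (SD, n = 6), a difference of 1.90 (exact permutation P = 0.0519, adjusted P = 0.0866). *Tnnc1* amounted to 0.0269, 0.0181, 0.0038, 0.0528, 0.0157 and 0.0309% of *Tnnc2* in controls 1 to 6 and to 0.373, 0.0386, 0.170, 0.0301, 0.0260 and 0.782% in CKOs 1 to 6. CKOs 1, 3 and 6 exceeded all controls, and all 6 CKOs were above the control median. The mean log2 ratio was -12.16 ± 1.11 in controls and -9.81 ± 2.03 in CKOs (SD, n = 6), a difference of 2.35 (exact permutation P = 0.0390, adjusted P = 0.0866).

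The cardiac to fast ratios differed less. *Tnnt2* ran from 0.00476 to 0.0166% of *Tnnt3* in controls, with CKOs 1, 3, 4 and 6 above all of them at 0.0350, 0.0332, 0.0180 and 0.0313%. CKOs 2 and 5, at 0.00637 and 0.00670%, were within the control range. The difference in mean log2 ratio was 0.90 (exact permutation P = 0.0931, adjusted P = 0.116). *Tnni3* reached at most 0.00752% of *Tnni2* in controls and 0.0155% in CKOs, with a difference in mean log2 ratio of 0.64 (exact permutation P = 0.208, adjusted P = 0.208). No ratio passed 0.05 after adjustment with all 12 mice. Without CKO 5 all 5 did, with adjusted P between 0.0108 and 0.0476, and without CKO 2 all did except *Tnni3* to *Tnni2* (adjusted P = 0.0487 for the other 4 and 0.370 for *Tnni3*). With a pseudocount of 1 in place of 0.1 each adjusted P was 0.0476. Without any pseudocount, where *Tnni3* had no ratio, the permutation adjusted P lay between 0.0736 and 0.104. With group medians in place of means it lay between 0.112 and 0.193 over the 5 ratios. The cardiac values are mostly below 1 FPKM. At the pseudocount of 1 the log2 difference between groups was 0.08 for *Tnni3* and -0.30 for *Tnni2*, so the fast gene set most of that ratio's difference. It was 0.30 for *Tnnt2* and -0.34 for *Tnnt3*, so both genes entered that ratio's difference.

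**Figure D3:**
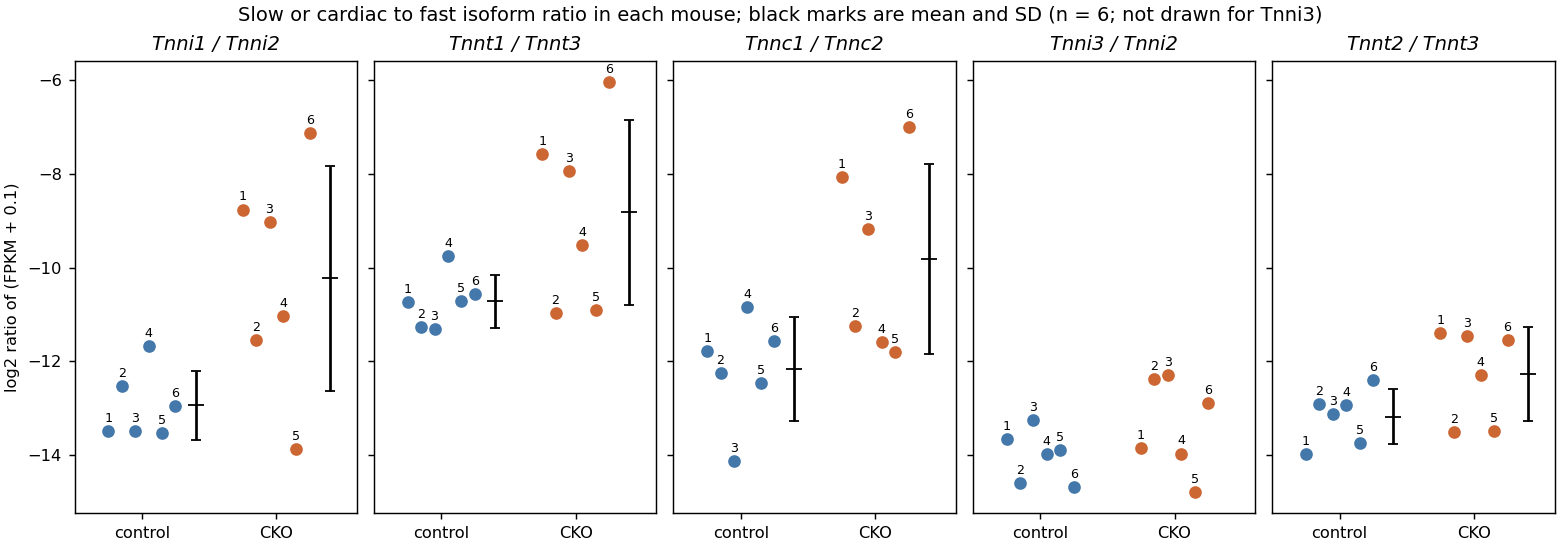
Log2 ratio of (FPKM + 0.1) for a slow or cardiac troponin over the fast troponin of the same subunit, in each control (blue) and CKO (orange); numbers name the mouse, and black marks are the mean and SD of 6 mice, not drawn for *Tnni3*. CKOs 1, 3 and 6 were highest for the 3 slow ratios, and CKO 5 was lowest for *Tnni1* over *Tnni2*.

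Slow isoforms remained a small part of each subunit pool even where they were highest. In CKO 6 they made up 0.705% of troponin I, 1.51% of troponin T and 0.776% of troponin C by summed FPKM. In controls the highest share was 0.0277%, 0.114% and 0.0528%, respectively, each in control 4. The pool of each subunit was 0.805 (I), 0.789 (T) and 0.780 (C) of the control mean in CKOs. The proportion between subunits differed between groups by less than the SD among mice. Troponin T per troponin I was 1.81 ± 0.10 in controls and 1.76 ± 0.07 in CKOs, and troponin C per troponin I was 1.57 ± 0.08 and 1.51 ± 0.17 (SD, n = 6). All 8 genes together held 9.86 to 11.4% of the summed FPKM of a library in controls and 7.59 to 9.42% in CKOs. These shares did not overlap between the groups, although the FPKM of each of the 8 genes did. A share also depends on the FPKM of all other genes in the library. The shares carry no test because they are sums over chosen genes, and no background for such sums was computed.

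The highest mice held the same order for the 3 slow troponins, while CKOs 2, 4 and 5 changed places. CKO 6, CKO 1 and CKO 3 were the highest 3 of 12 mice, in this order, for *Tnni1*, *Tnnt1* and *Tnnc1*. Of 12 other slow fiber genes, 3 had this order, namely *Myh7*, the slow myosin heavy chain, *Myl2*, its regulatory light chain, and *Atp2a2*, the slow and cardiac calcium pump. In 5 of the 12 these mice were the highest 3 in any order. Among the rest, *Myl3* was lowest in CKO 3, and *Csrp3* and *Ankrd2* were highest in control 1. For *Tnnt2* they were again the highest 3, led by CKO 1. The same mice were the lowest 3 for *Tnni2*, *Tnnt3* and *Tnnc2*. Control 4 was the highest control for all 3 slow troponins. The relative depth of CKOs 6, 1 and 3, read from the steps between low FPKM values and set to 1 in control 1, was 1.18, 1.77 and 1.30. It reached 1.54 in controls and was 1.08 and 1.55 in CKOs 2 and 4. CKO 5, lowest for *Tnni1*, had the lowest relative depth, at 0.984. The part of depth in these orders was not tested.

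**Figure D4:**
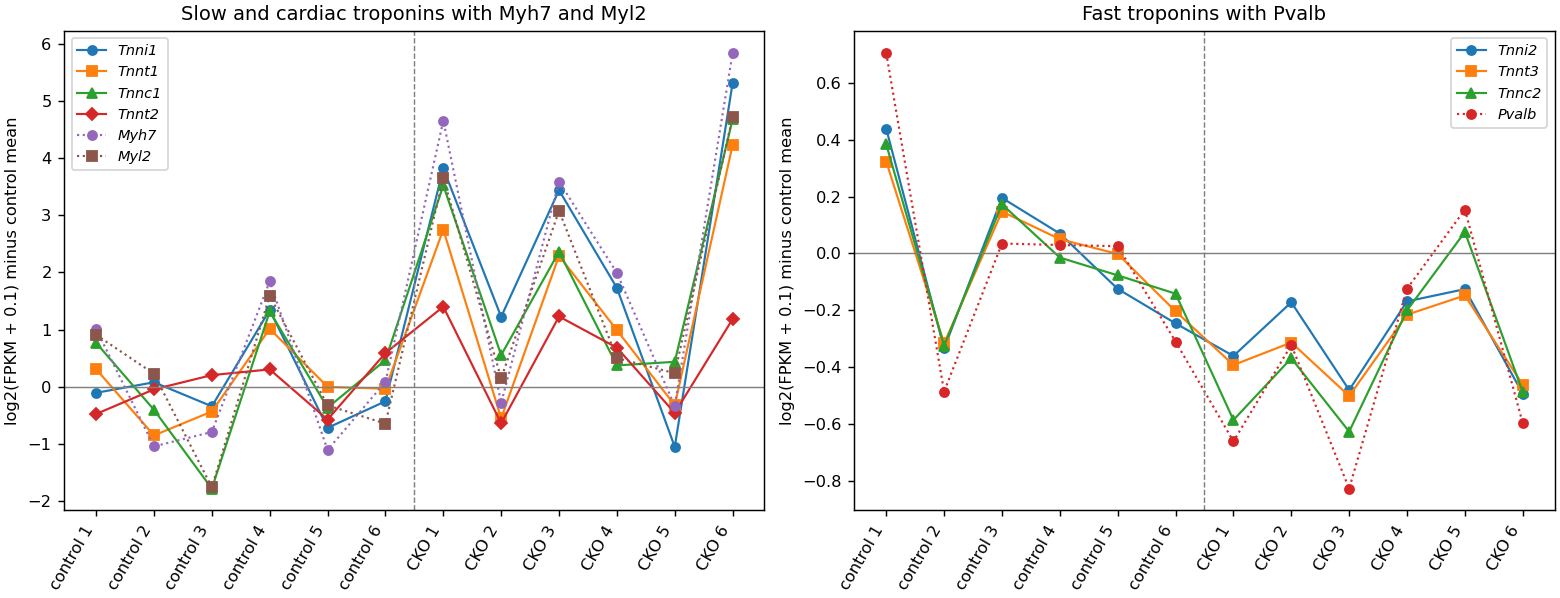
Log2(FPKM + 0.1) minus the control mean in each of the 12 mice, for the slow and cardiac troponins with *Myh7* and *Myl2* (left) and the fast troponins with *Pvalb* (right); the dashed line separates controls from CKOs, and the vertical scales differ. The genes at left peaked together in CKOs 1, 3 and 6, where the fast troponins were lowest.

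The likeness of patterns within groups was described over the 12 mice by the correlation of each gene's deviations from its own group mean. Such values share the scaling and depth of each library, and they are given without a test. *Tnni1* varied with *Tnnt1* (Pearson r = 0.903, Spearman rho = 0.846), *Tnnc1* (r = 0.831, rho = 0.797) and *Tnnt2* (r = 0.774, rho = 0.825). Without CKO 1 and CKO 6, the mice farthest from the median of *Tnni1*, r was 0.820, 0.685 and 0.730. *Tnnc2* varied with *Tnnt3* (r = 0.922, rho = 0.951) and *Tnni2* (r = 0.880, rho = 0.902). Between *Tnni1* and *Tnnc2* r was -0.61 and rho -0.59.

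Among 7963 other genes with a mean of at least 1 FPKM, the genes most like *Tnni1* were *Ctgf* (r = 0.943), *Myh7* (0.914), *Sh3pxd2a* (0.909), *Ankrd1* (0.903) and *Lrrn1* (0.903). *Ctgf* encodes a secreted matrix-associated growth factor and *Ankrd1* a stress-responsive ankyrin repeat protein of muscle. *Myh7* measured 0.204 to 2.25 FPKM in controls and 16.5, 0.438, 7.81, 2.51, 0.419 and 37.5 FPKM in CKOs 1 to 6. The genes most like *Tnnt2* were *Stau1* (r = 0.934), *Tbc1d8* (0.919), *Sh3pxd2a* (0.910), *Alkbh8* (0.904) and *Lrp5* (0.899). The genes most like *Tnnc2* were *Pvalb* (r = 0.959), *Sh3bgr* (0.951), *Ckm* (0.948), *Mgst1* (0.942) and *Gm5801* (0.942). *Pvalb* encodes parvalbumin, a calcium buffer of fast fibers, and *Ckm* encodes muscle creatine kinase. Without the 2 farthest mice these 15 values of r lay between 0.842 and 0.952.

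Other genes of the thin filament showed changes in both directions. Of 14 tested, 4 were higher (*Tmod1*, *Klhl40*, *Klhl41* and *Tpm3*) and 2 lower (*Acta1* and *Tpm1*) at the unadjusted threshold, none passed the adjusted one, and the median log2 fold change was 0.09 against 0.18 for all genes. After median-ratio scaling the counts were 4 and 6 and the median -0.10. The shares of all genes were 18.1% higher and 1.76% lower as deposited, and 6.62% and 7.44% after this scaling. *Tmod1*, which caps the pointed end of the filament, was 34.1 ± 3.70 FPKM in controls and 46.5 ± 6.55 in CKOs (SD, n = 6; limma adjusted P = 0.0539). *Klhl40* and *Klhl41*, Kelch proteins that stabilize thin filament proteins, had log2 fold changes of 0.77 and 0.47 (adjusted P = 0.0655 and 0.0830). Skeletal actin, *Acta1*, was 4604 ± 370 FPKM in controls and 3669 ± 434 in CKOs (log2 fold change -0.33, adjusted P = 0.218), a size like that of the fast troponins. *Tpm1*, the tropomyosin of fast fibers, had a log2 fold change of -0.40, and *Tpm3*, that of slow fibers, 1.18.

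Over all genes tested, 18.1% were higher and 1.76% lower by unadjusted P as deposited, and 6.62% and 7.44% after median-ratio scaling. Of 12 slow fiber genes outside the troponins, 6 stood higher in CKOs and 0 lower by unadjusted P, with a median log2 fold change of 0.73. After median-ratio scaling the counts were 6 and 1 and the median 0.54, the lower gene being *Myl3*, a slow and ventricular myosin light chain (-0.52 as deposited, -0.70 scaled), which was also lower by unadjusted P after quantile normalization and with a replicate block. *Myh7b*, a slow-type myosin heavy chain, was the member past the adjusted threshold, at 0.175 ± 0.06 FPKM in controls and 0.437 ± 0.16 in CKOs (SD, n = 6; log2 fold change 0.94, adjusted P = 0.0470). *Myh7* (2.58), *Myl2* (2.06), *Tpm3* (1.18), *Myoz2* (0.90) and *Atp2a2* (0.87) were the other 5. Of 12 fast fiber genes, 4 were higher and 1 lower, with a median of -0.03, and 4 and 3 with a median of -0.22 after median-ratio scaling. The 4 were *Mybpc2*, fast myosin-binding protein C (0.52), and the fast myosin heavy chains *Myh1* (1.05, adjusted P = 0.00733), *Myh2* (1.18) and *Myh4* (0.77), each also positive after median-ratio scaling and quantile normalization. The values of the myosin heavy chain genes are uncertain, because they are close copies of each other and reads that mapped to several places had been discarded.

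Of 13 regulators of fiber type, 2 stood higher and 1 lower by unadjusted P, with a median log2 fold change of -0.03, and 2 and 4 with a median of -0.22 after median-ratio scaling. For comparison, 18.1% of all genes tested were higher and 1.76% lower by unadjusted P, and 6.62% and 7.44% after median-ratio scaling. *Tead4*, a factor that binds MCAT motifs, was 0.199 ± 0.07 FPKM in controls and 0.607 ± 0.27 in CKOs (SD, n = 6; log2 fold change 1.19, limma adjusted P = 0.0332). *Mef2c* was higher (0.48), and *Sox6*, a repressor of slow fiber genes, was lower (-0.22, adjusted P = 0.251), a call just past the unadjusted threshold that was lost with a pseudocount of 1 or a filter at 1 FPKM and was kept in 4 of 12 fits with a mouse left out. Of 7 embryonic muscle genes tested, 6 were higher and 0 lower, with a median of 0.94, and 5 and 1 with a median of 0.76 after median-ratio scaling. The remaining gene, *Actc1*, which encodes cardiac actin, had a log2 fold change of -0.54. *Myh3*, the embryonic myosin heavy chain (2.67, adjusted P = 0.0358), and *Chrna1*, the alpha subunit of the acetylcholine receptor (0.81, adjusted P = 0.0331), passed the adjusted threshold. Of the list genes past that threshold, *Myh1* stayed past it under both scalings (adjusted P = 0.0285 and 0.00728) and with any 1 mouse left out. *Myh7b*, *Tead4*, *Myh3* and *Chrna1* did not pass it under either scaling (adjusted P between 0.0524 and 0.166), and they lost it with 9, 7, 8 and 7 of the 12 mice left out in turn.

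Markers of other cell types and of the heart were read in the same libraries, and their part in the troponin results was not tested. Of 9 markers of heart muscle, *Myh6* passed the filter, and it was 0.185 to 0.512 FPKM in controls and 2.37, 0.270, 1.63, 0.437, 0.234 and 2.93 FPKM in CKOs 1 to 6. *Myl7* and *Nppb* were listed at 0 in every library, and *Nppa* and *Nkx2-5* were listed at 0 in every library but CKO 6, at 0.0946 and 0.0514 FPKM. *Gata4* was above 0 only in control 1, at 0.0273 FPKM. *Tbx5* was listed at 0 in 8 libraries, CKO 6 among them, and was highest in control 1 at 0.0235 FPKM. *Ryr2* reached 0.0260 FPKM in controls and 0.0280 in CKOs, and *Hcn4* reached 0.0674 and 0.0826. The summed FPKM of the 9 was 0.265 to 0.606 in controls and 0.262 to 3.17 in CKOs. The defining markers of skeletal muscle were high in every library, at 12725 to 19426 summed FPKM in controls and 14198 to 18517 in CKOs, although *Ttn* was listed at 0 in 8 of 12. Summed markers lay at 17.1 to 26.5 FPKM in controls and 18.0 to 24.5 in CKOs for smooth muscle, 16.5 to 55.0 and 14.3 to 32.8 for tendon, 0.437 to 1.06 and 0.639 to 2.08 for adipocytes, and 9.55 to 13.5 and 10.7 to 17.3 for Schwann cells. Satellite cell markers lay at 2.32 to 5.58 and 4.05 to 8.81 FPKM. With the FPKM as deposited, all 4 of them were higher in CKOs at the unadjusted threshold, and they were not counted after median-ratio scaling. At that threshold 18.1% of all genes tested were higher, and 0 of the 4 markers passed the adjusted threshold.

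*Smyd1* itself was 47.1, 33.4, 41.1, 32.9, 33.8 and 36.1 FPKM in controls 1 to 6 and 38.0, 32.1, 32.5, 27.8, 39.9 and 34.5 FPKM in CKOs 1 to 6. Its log2 fold change was -0.13 as deposited (limma adjusted P = 0.545). It was -0.32 after median-ratio scaling (adjusted P = 0.0797) and -0.23 after quantile normalization (adjusted P = 0.186). By western blot, the study found no detectable SMYD1 protein in CKO tibialis anterior. An RNA value for the whole gene does not separate the floxed exons from the rest, so it does not check the genotype labels of the mice compared here.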

How the data were processed

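Tibialis anterior RNA from 6 controls and 6 CKOs was depleted of ribosomal RNA and sequenced by the authors, who aligned reads with bowtie2 and TopHat2 2.0.10 to mm9 (at most 2 mismatches), discarded reads mapping to several places, and computed the deposited FPKM with Cufflinks 2.1.1 (versions and build per the submitters' processing notes). The annotation is not given in the sources used here, and the depth in reads is unknown. The authors' own test was DESeq on counts, which were not analysed here.

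Each file listed 23950 symbols, and 27 that had turned into dates were dropped. The 8 troponins were tested in a limma fit (version 3.58.1, R 4.3.3, prior variance with a trend) on log2(FPKM + 0.1) of the 12695 genes that reached 0.1 FPKM in 6 or more libraries, with Benjamini-Hochberg adjustment over all of them. Ratios were compared by exact permutation in Python 3.11.15 (smallest P possible 0.002165). The code was tested on simulated data. Members and gene lists were chosen with earlier results of these data known. The text names all members, *Smyd1*, the genes of each list past the adjusted threshold or otherwise the 3 with the smallest P, the 5 genes most like *Tnni1*, *Tnnt2* and *Tnnc2*, and genes between paired troponins; further genes were named after their values were seen, to say which genes make up a count. Alternatives were the pseudocount, the filter, scaling, limma without the trend, sample weights, the replicate number as a block, medians for the ratios, and each mouse left out. The labels give no batch or litter.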

Additional observations from a re-analysis of the deposited data

Results flagged for a closer look

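3 values stood far from the other 5 mice of their group by Dixon's ratio of the gap to the range. *Tnni1* was 0.904 FPKM in control 4, where the next control had 0.318 (ratio 0.768). *Tnni1* was 15.7 FPKM in CKO 6, where the next CKO had 5.49 (ratio 0.653). *Tnnt1* was 62.4 FPKM in CKO 6, where the next CKO had 22.3 (ratio 0.666). In all, 42 groups were examined over 21 measures, and chance marks about 1 in 20 groups.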

How the results depend on the processing

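Every troponin gene and ratio kept its direction under each alternative run. Of the adjusted calls in limma, array weights gave 2 higher members (*Tnni1*, adjusted P = 0.0193, and *Tnnc1*, 0.0464). With these weights 1400 of all 12695 genes were higher past the adjusted threshold, against 257 as reported. Leaving out 1 mouse gave 0 to 1 higher members, the 1 being *Tnni1* without CKO 5, where 318 of all genes were higher. The count of members higher at the unadjusted threshold, 3 as reported, ranged from 2 to 4 over all alternatives. The count of members lower at the unadjusted threshold, 0 as reported, was 2 with a pseudocount of 1, without the trend and with array weights, 3 with a filter at 1 FPKM or median-ratio scaling, 1 with quantile normalization and 0 to 3 with 1 mouse left out. With a pseudocount of 1 the ratio differences were 1.77 (*Tnni1*), 1.75 (*Tnnt1*), 1.79 (*Tnnc1*), 0.38 (*Tnni3*) and 0.64 (*Tnnt2*). Leaving out each mouse gave 2.09 to 3.44, 1.35 to 2.33, 1.79 to 2.75, 0.42 to 0.93 and 0.73 to 1.15 in the same order. The cause was not tested. Over all genes, the unadjusted counts of 2300 higher and 224 lower became 841 and 944 with median-ratio scaling, 810 and 837 with quantile normalization, and 3704 and 318 with array weights.

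Deviations of same-numbered mice were weakly correlated (-0.09 to 0.16, mean 0.04, against -0.01 for other pairs). The labels give no litter or batch, so whether the number pairs the mice cannot be told. In the fit with a replicate block the log2 fold change of *Tnni1* was 2.41 (adjusted P = 0.0881), and the ratio differences of 2.71, 1.90, 2.35, 0.64 and 0.90 had adjusted P between 0.117 and 0.281. The 6 pairs allow no exact P below 0.03125. A filter at 1 FPKM removed *Tnni1*, *Tnni3* and *Tnnt2*, and *Tnni3* had no ratio without a pseudocount. Reads behind the low FPKM are unknown, which limits *Tnni3*, *Tnni1* and *Tnnt2* most. The control median of *Tnni1*, 0.249 FPKM, was below that of *Tnnt2*, 0.540 FPKM.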
